A study of Mus musculus with 2 samples.

Results

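The genes described here are 36 components of the Wnt pathway, chosen by name and grouped by role as 10 ligands, 8 receptors, 10 antagonists, 4 intracellular transducers and 4 target genes. Of these, 35 had at least 1 probe set carrying their symbol alone on the Mouse430_2 array, out of 18193 such genes in all, and each was read from the probe set with the brightest mean signal. Tcf7 had no such probe set and has no signals here, but its promoter windows are counted in the sequence search below. Hair follicles were taken at postnatal day 10 from wild-type mice and from dnFGFR2-IIIb transgenic mice; the transgene is named for a receptor of the fibroblast growth factor family in its IIIb splice form. Each group is a single array of total RNA pooled from about 300 follicles, with about 100 from each of 3 mice born to different litters. The promoter driving the transgene, the strain and the sex of the mice are not stated in the labels. With 1 array a group there is no replicate spread, so every ratio below compares these 2 pools and carries no p-value. The comparison asks which genes read differently when the FGFR2-IIIb pathway is altered in the follicle.

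Wnt proteins are secreted lipid-modified ligands that bind Frizzled receptors together with the co-receptors LRP5 and LRP6. Binding stops the Axin-containing destruction complex from degrading beta-catenin, which then enters the nucleus and acts with the DNA-binding factors of the TCF/LEF family on target genes, among them Axin2 itself and other feedback inhibitors. In skin the pathway is known for its part in forming hair placodes and in differentiation of the hair shaft, and for signals between the follicle epithelium and the dermal papilla. FGFR2-IIIb is the epithelial form of its receptor and binds FGF7 and FGF10.

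The sequences upstream of 3 members are shown first because they hold the core sequence that TCF/LEF factors recognise. The core was searched as CTTTGAT on both strands, within the 250 bases before each annotated start in RefSeq, assembly GRCm38.p6. Promoter windows were held for 21 members, in 27 windows. The core lay in 3 of these windows (11.1%), against 3.21% of all 32851 windows of the same length, and belonged to Sp5, Wnt5b and Wnt11. The windows at other starts of Wnt5b and Wnt11 did not hold it. Capitals mark the core, which begins 104, 71 and 51 bases before the start site, and each sequence reads 5′ to 3′ in the direction of transcription.
Sp5 promoter, chr2:70474673-70474922, + strand: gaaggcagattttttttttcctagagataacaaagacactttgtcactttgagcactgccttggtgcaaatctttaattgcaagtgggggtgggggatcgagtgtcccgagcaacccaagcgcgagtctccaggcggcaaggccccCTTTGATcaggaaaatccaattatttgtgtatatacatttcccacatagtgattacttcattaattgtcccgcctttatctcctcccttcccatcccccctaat
Wnt5b promoter, chr6:119449387-119449636, - strand: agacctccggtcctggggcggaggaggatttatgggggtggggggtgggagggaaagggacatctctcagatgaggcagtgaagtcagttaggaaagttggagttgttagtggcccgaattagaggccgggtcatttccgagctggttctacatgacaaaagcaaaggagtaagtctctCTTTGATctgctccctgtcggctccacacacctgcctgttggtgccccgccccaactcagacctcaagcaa
Wnt11 promoter, chr7:98834862-98835111, + strand: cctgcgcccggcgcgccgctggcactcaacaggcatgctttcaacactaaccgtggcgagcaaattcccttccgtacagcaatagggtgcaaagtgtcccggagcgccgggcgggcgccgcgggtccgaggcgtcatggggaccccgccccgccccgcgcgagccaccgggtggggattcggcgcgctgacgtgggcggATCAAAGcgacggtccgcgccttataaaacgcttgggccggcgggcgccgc
A match is a description of letters and not a binding site, and no match says only that these letters are not in the window. On the arrays these genes had little in common. Sp5, a zinc finger factor and known target of beta-catenin, lay under the floor on both arrays. Wnt5b had a log2 ratio of 0.56 at a dim probe set, and Wnt11 one of -0.14.

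The upstream sequences of Wnt4, Nkd2 and Axin2 are shown for contrast. Wnt4 and Nkd2 are the bright members that stood furthest above their wild-type signals, and Axin2 is the most widely used target of the pathway; all were chosen after their values were seen. The TCF/LEF core was in none of these windows. Capitals mark GC boxes, searched as GGGCGG on both strands, the element that Sp family factors bind, a motif also chosen after the data were seen. GC boxes lay in 16 of the 27 member windows (59.3%) and in 32.7% of all windows, and 0 of them overlapped a TCF/LEF core.
Wnt4 promoter, chr4:137277385-137277634, + strand: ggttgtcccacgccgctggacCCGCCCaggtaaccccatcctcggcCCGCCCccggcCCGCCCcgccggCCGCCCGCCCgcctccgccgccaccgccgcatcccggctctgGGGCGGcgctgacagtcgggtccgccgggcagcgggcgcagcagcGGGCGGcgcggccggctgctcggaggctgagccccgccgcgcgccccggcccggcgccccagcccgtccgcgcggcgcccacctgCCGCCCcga
Nkd2 promoter, chr13:73847632-73847881, - strand: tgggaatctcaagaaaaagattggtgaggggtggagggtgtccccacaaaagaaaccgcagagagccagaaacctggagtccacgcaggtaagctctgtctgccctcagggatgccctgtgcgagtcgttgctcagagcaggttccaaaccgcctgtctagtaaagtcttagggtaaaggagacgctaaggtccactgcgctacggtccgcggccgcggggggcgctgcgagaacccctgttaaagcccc
Axin2 promoter, chr11:108920099-108920348, + strand: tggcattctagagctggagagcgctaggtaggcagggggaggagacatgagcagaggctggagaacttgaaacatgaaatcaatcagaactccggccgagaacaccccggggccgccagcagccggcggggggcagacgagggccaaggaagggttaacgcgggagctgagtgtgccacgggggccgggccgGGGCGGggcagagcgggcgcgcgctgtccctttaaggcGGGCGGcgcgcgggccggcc
The Wnt4 window holds 8 GC boxes at 85.2% G and C, the Axin2 window 2 at 69.2%, and the Nkd2 window 0 at 58.4%. Wnt4 and Nkd2, which had similar ratios on the arrays, thus differ in the GC boxes of these windows.

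Signals are linear intensities, and values under a floor of 10.5, the 40th percentile of both arrays, were treated as unmeasured. Of the 35 members, 29 exceeded the floor on both arrays and 6 on neither. A gene was counted as higher or lower when its signals differed at least 2-fold. By that rule 2 Wnt genes were higher on the transgenic array and 0 were lower. Across all 11565 genes measured on both arrays, 1.6% were higher and 1.58% lower, or 185 and 183 genes, a split that moved to 140 and 230 with quantile normalization, 131 and 240 with loess, 115 and 296 with equal medians and 316 and 103 with equal spiked controls. The 2 higher members, Wnt3 and Rspo3, were dim on the wild-type array. Among genes in the dim tertile of brightness, to which both belong, 4.05% were higher.

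Smaller differences leaned to one side under the scaling used. Of the 29 members, 21 had a ratio above 1 (72.4%), against 49.9% of all genes, and the median log2 ratio was 0.12 against 0.00 for all genes. With arrays set to equal medians the member median was -0.03 and that of all genes -0.14, and 14 of 29 ratios were above 1. With equal spiked controls the medians were 0.30 and 0.18. The sign of a small ratio therefore depends on the scaling. The member median stood 0.11 to 0.12 above that of all genes under each of these scalings. They multiply each array by 1 factor and shift all ratios alike, so they could hardly change that distance. The distance was 0.11 with quantile normalization and with loess, and 0.09 with a floor of 50. When each gene was read as the mean of its probe sets, that distance was 0.03.

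**Figure D1:**
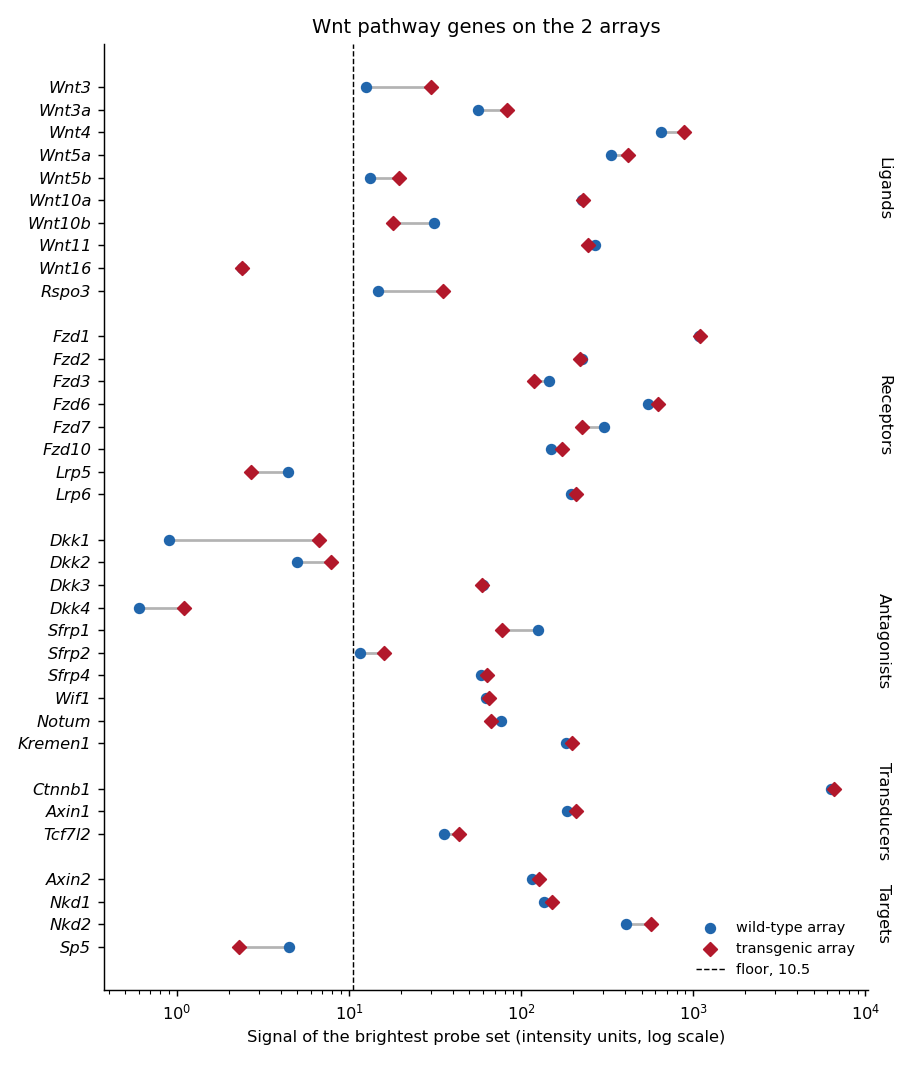
Signal of the brightest probe set of each of the 35 measured Wnt genes on the wild-type array (blue circles) and the transgenic array (red diamonds), in intensity units on a log axis, grouped by role; each point is 1 array of pooled follicles and the dashed line is the floor of 10.5. Most pairs nearly coincide, and 6 genes lie left of the floor on both arrays.

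A part of the technical spread behind a ratio was taken from genes with several probe sets. Within a gene, log2 ratios of different probe sets had an SD of 0.51 for dim, 0.29 for middle and 0.17 for bright probe sets, with mean signals up to 64.9, up to 239, and above. This spread leaves out differences between mice and any error that all probe sets of a gene share on an array. Probe sets were compared only within a tertile, so differences between the bright and dim ones of a gene are left out too. A distance in SD is therefore not a distance in the whole technical error. Of the 29 members, 18 lay within 1 such SD of a ratio of 1 and 11 beyond it, and over all genes 36.9% lay beyond it. Beyond 2 SD lay 6 of the 29 members, where 9.97% of all genes did. They were Wnt3, Wnt4, Rspo3 and Nkd2 on the high side and Fzd7 and Sfrp1 on the low side. Of the 8 members in the bright tertile, 2 were over 2 SD above 0 and 1 over 2 SD below, where 6.36% and 7.89% of all bright genes were.

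A few facts of the arrays bear on all these values. The 3′ to 5′ signal ratio, which rises as RNA degrades, was 1.89 and 2.06 for beta-actin on the wild-type and transgenic arrays. The brightest of 27 control probe sets with no target in the mouse read 8.50 in the wild type and 15.8 in the transgenic, so that transgenic signals under about that level are near background. Xist, the RNA of the inactive X, read 352 and 1146, and the Y-linked Eif2s3y read 191 in wild type and was under the floor in transgenic RNA. The sex-linked signals of the pools thus differed, and the part of this in the ratios below was not tested. The brightest Fgfr2 probe set read 197 and 368, but it is not known whether the transgene contains it.

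Within the 36-gene set the ligands had the widest range of ratios, from -0.79 to 1.26 on the log2 scale. Of 9 ligands above the floor, 7 had a ratio above 1, for a median of 0.44. Wnt4, a ligand found in developing skin epithelium and needed for kidney and reproductive tract development, read 649 in wild-type and 882 in transgenic follicles at its brightest probe set. Its log2 ratio was 0.44, or 1.36-fold, which is 2.58 times the SD for bright probe sets. Its other probe set read 323 and 454, a log2 ratio of 0.49. Both Wnt4 probe sets thus gave nearly the same ratio.

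Wnt5a, which mostly signals without beta-catenin and is known from the dermal papilla, read 334 and 415 at its brightest probe set, a log2 ratio of 0.31. Another probe set read 336 and 404, and a further one 119 and 170. The dimmest of its 4 probe sets read 17.4 and 37.3, a log2 ratio of 1.10. All Wnt5a probe sets read more on the transgenic array, the dim one by the most. Its close relative Wnt5b read 13.2 and 19.4, a log2 ratio of 0.56 with both signals close to the floor. That probe set is of a type that can match several transcripts, and the other Wnt5b probe set was under the floor on both arrays.

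Wnt3 and Wnt3a, ligands that activate beta-catenin, both read more on the transgenic array. Wnt3 read 12.5 and 30.0, a 2.40-fold difference, from its single probe set, which is of a type that can match several transcripts and whose wild-type signal lies close to the floor. Wnt3a read 56.3 and 82.7, a log2 ratio of 0.55 or 1.91 SD. Wnt3a was well above the floor on both arrays and did not reach 2-fold.

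Wnt10a and Wnt10b, beta-catenin ligands of the hair placode and hair matrix, did not go together. Wnt10a read 225 and 228, a log2 ratio of 0.02. Wnt10b read 31.1 and 18.0, a 1.73-fold lower signal, at a log2 ratio of -0.79 from its single probe set, which is 1.54 SD from 0. Wnt11, a ligand of cell movement and polarity, read 269 and 244. Wnt16 lay under the floor on both arrays.

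Rspo3, an R-spondin that strengthens Wnt signals by removing the ubiquitin ligases that degrade Frizzled receptors, read 14.7 and 34.9. This 2.37-fold difference rests on 1 of its 2 probe sets, since the other was under the floor on both arrays. With the floor on both arrays set at the brightest control without a target, the 15.8 of the transgenic array, neither Wnt3 nor Rspo3 could be compared and 0 members were 2-fold higher. That setting was added after seeing the data.

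Wnt genes often lie side by side in the genome as pairs from ancient duplications, and RefSeq places several members next to another Wnt gene. Wnt3a lies next to Wnt9a, which read 69.3 and 39.7, a log2 ratio of -0.80, while Wnt3a was at 0.55. Wnt10a lies next to Wnt6, which read 42.2 and 59.99, a log2 ratio of 0.51, beside 0.02. Wnt3 lies next to Wnt9b and Wnt10b next to Wnt1, and both of these neighbours lay under the floor. Wnt3a and Wnt9a thus had ratios on opposite sides of 1, while those of Wnt6 and Wnt10a were both above it.

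**Figure D2:**
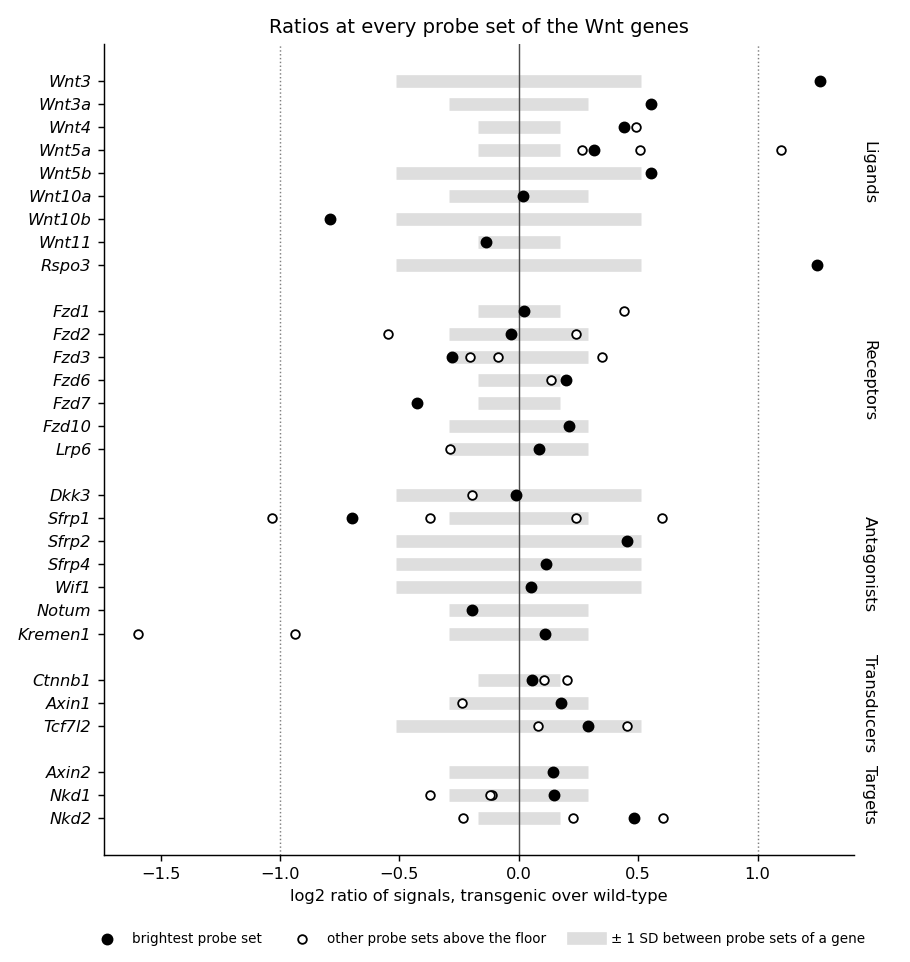
Log2 ratio of transgenic to wild-type signal at every probe set with both signals above the floor, for the 29 Wnt genes measured on both; filled points are the brightest probe set of a gene, open points its others, grey bars span 1 SD between probe sets of a gene in the same brightness tertile, and dotted lines mark 2-fold. Wnt4 and Wnt5a lie right of 0 at all their probe sets, whereas Sfrp1 and Kremen1 scatter on both sides.

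Among the members, most Frizzled and LRP receptors above the floor lay within 1 SD of equal signals at their brightest probe sets. Fzd7 did not, at a log2 ratio of -0.43. Of 8 receptors, 7 exceeded the floor, 4 of them with a ratio above 1, and the median log2 ratio was 0.02. Fzd1 read 1079 and 1096, a log2 ratio of 0.02, with 0.44 at its dimmer probe set (63.5 and 86.3). Fzd6, a Frizzled known for setting the orientation of hairs across the skin, read 543 and 622 at one probe set and 140 and 154 at another, log2 ratios of 0.20 and 0.14. Fzd10 read 150 and 173, and the co-receptor Lrp6 read 196 and 207, while its other probe set gave a log2 ratio of -0.29. At their brightest probe sets these genes lay within or close to 1 SD of equal signals.

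Fzd7 was the receptor farthest from equal signals among the members. It read 304 in wild-type and 226 in transgenic follicles, 1.34-fold lower, at a log2 ratio of -0.43, which lies 2.49 SD from 0. Its other probe set lay under the floor, so that the value rests on 1 probe set. Fzd2 read 225 and 220 at its brightest probe set, which is of a type that can match several transcripts. It read 226 and 155 at another and 192 and 226 at the last. Its probe sets therefore gave log2 ratios from -0.55 to 0.24 and no common direction. Fzd3, which also acts in cell polarity and axon guidance, read 145 and 119, a log2 ratio of -0.28, with others from -0.21 to 0.35. Lrp5 lay under the floor on both arrays.

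Of the 10 antagonists, 7 were measured and 3 were not. The Dickkopf proteins block the LRP co-receptors, and Dkk1, Dkk2 and Dkk4 lay under the floor on both arrays. Dkk3, a divergent family member, read 59.7 and 59.2. Wif1, which binds Wnt proteins outside the cell, read 62.7 and 65.0. Notum, an enzyme that removes the lipid from Wnt proteins, read 76.6 and 66.9, a log2 ratio of -0.20. None of the measured ones among these reached 1 SD. Over the 7 antagonists above the floor the median log2 ratio was 0.05, with 4 ratios above 1.

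The secreted Frizzled-related proteins bind Wnt ligands and were not uniform. Sfrp1 read 125 and 77.1 at its brightest probe set, 1.62-fold lower on the transgenic array, at a log2 ratio of -0.70, which is 2.40 SD from 0. The next 2 probe sets read 100.2 and 77.5, then 32.9 and 38.9, and the dimmest ones read 26.4 and 12.9, then 21.3 and 32.3. Of the 5 Sfrp1 probe sets, 2 read more on the transgenic array, so its ratio depends on the probe set, and the mean over them was -0.25. Sfrp2 read 11.6 and 15.9, close to the floor, and Sfrp4 read 58.6 and 63.5.

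Kremen1, a receptor that works with Dickkopf proteins to remove LRP6 from the cell surface, read 183 and 197 at its brightest probe set, a log2 ratio of 0.11. Its dimmer probe sets read 35.0 and 11.6, and 22.0 and 11.5, which are log2 ratios of -1.59 and -0.94. The mean over Kremen1 probe sets was -0.81, of the opposite sign to the brightest. At a threshold of 1.5-fold, 2 members were lower, Wnt10b and Sfrp1, and 2 were higher, again Wnt3 and Rspo3. The shares over all genes were 6.78% lower and 6.36% higher.

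The 3 measured transducers had log2 ratios between 0.06 and 0.29, the narrowest range of the roles in the 36-gene set at the brightest probe sets. Ctnnb1, which encodes beta-catenin, a protein that also joins cadherins to the cytoskeleton, read 6291 and 6546 at its brightest probe set, a log2 ratio of 0.06. Its other probe sets read 1093 and 1177, and 676 and 779, with log2 ratios of 0.11 and 0.20. Axin1, the scaffold of the destruction complex, read 185 and 209 at one probe set and 70.8 and 60.1 at the other. Tcf7l2, a TCF/LEF factor, read 35.5 and 43.4, a log2 ratio of 0.29, at a probe set of a type that can match several transcripts. It had 0.08 and 0.45 at 2 other probe sets. The remaining one read 27.0 in wild type and was under the floor in transgenic RNA. All Ctnnb1 readings were slightly above their wild-type values.

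Of the target genes, Axin2 and Nkd1 read close to alike and Nkd2 did not. Axin2, a scaffold induced by beta-catenin as feedback, read 115 and 127, a log2 ratio of 0.14, within 1 SD. Nkd1, an inhibitor that binds Dishevelled, read 136 and 151 at its brightest probe set. The other Nkd1 probe sets gave log2 ratios from -0.37 to -0.11, so that only its brightest was above 1. Nkd2, its paralogue, read 408 and 570, a log2 ratio of 0.48, or 1.40-fold and 2.82 SD. Further Nkd2 probe sets read 359 and 546, and 316 and 371, and a dim one of a type that can match several transcripts read 25.3 and 21.5. The 3 bright Nkd2 probe sets were all above their wild-type signals, from 1.17-fold to 1.52-fold. At their brightest probe sets all 3 measured targets had a ratio above 1, for a median log2 ratio of 0.15. The size of the ratio was not shared.

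Agreement between probe sets was compared over the members with more than 1. Of 15 members with at least 2 probe sets measured on both arrays, 6 had a ratio above 1 at every one, 1 had a ratio under 1 at every one, and 8 went both ways. The 6 were Wnt4, Wnt5a, Fzd1, Fzd6, Ctnnb1 and Tcf7l2, and the 1 was Dkk3. A further probe set of Tcf7l2 (27.0 in wild type) and of Fzd6 (14.2 in wild type) was under the floor in transgenic RNA. These were not counted, and they went the other way. Among all 5253 such genes, 26.3% were above 1 at every probe set and 21.3% under 1.

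Beyond these genes, 95 others of the pathway were listed by role, of which 70 exceeded the floor on both arrays. Among the 70, 1 was 2-fold higher and 2 were 2-fold lower, close to the shares of 1.6% and 1.58% over all genes. Of the 70, 43 (61.4%) had a ratio above 1, against 49.9% of all genes, and the median log2 ratio was 0.12. The higher one was Lrp4, a receptor related to LRP6 that binds the antagonist Sostdc1, at 32.8 and 66.4 (2.02-fold). The lower ones were Bcl9, a co-activator of beta-catenin, and Fosl1, an AP-1 factor known as a beta-catenin target. Bcl9 read 114 and 56.0 (2.03-fold lower), and its second probe set gave a log2 ratio of -0.59. Fosl1 read 39.9 and 16.9 (2.36-fold lower). Lrp4 and Fosl1 rest on 1 probe set each, and Bcl9 read less on the transgenic array at both of its probe sets.

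By role, the wider list repeated the mixed picture of the ligands. Of 9 further ligands and secretion factors, 5 had a ratio above 1, with a median of 0.16. Wnt2 read 47.3 and 26.1 and Wnt9a was at -0.80, while Rspo2, an R-spondin of the dermal papilla, read 21.0 and 31.2 and Wnt7b read 24.3 and 35.5. Of 13 further receptors, 11 had a ratio above 1, for a median of 0.28. After Lrp4 came Fzd8 (18.0 and 27.9), Rnf43 (43.1 and 63.5), a ubiquitin ligase that degrades Frizzled receptors, and the stem cell receptor Lgr6 (48.8 and 69.1, but -0.07 on the log2 scale from its second probe set). Lgr5, an R-spondin receptor of follicle stem and progenitor cells, read 207 and 198.

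Among antagonists of this wider list above the floor on both arrays, the largest difference was in Apcdd1, a membrane inhibitor whose mutation causes hair loss. Cer1 (27.4) and Frzb (13.8) exceeded the floor in wild-type RNA alone. Apcdd1 read 1282 and 1873 at its brightest probe set, a log2 ratio of 0.55. That probe set is of a type that can match several transcripts. The 5 other Apcdd1 probe sets gave 0.05 to 0.56, so that all 6 had a ratio above 1. Sostdc1, a secreted inhibitor, read 58.9 and 74.5, with 0.54 at its other probe set. Shisa2 (185 and 168) and Dkkl1 (72.7 and 66.5) were close to equal. Over the 6 measured the median was -0.10, with 2 ratios above 1.

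Among 23 further transducers 16 had a ratio above 1, for a median of 0.13. Gsk3b, the kinase that marks beta-catenin for degradation, read 292 and 390, a log2 ratio of 0.42, and all 6 of its probe sets were above 1, with 0.18 to 1.24 at the other 5. Btrc, of the ubiquitin ligase that recognises marked beta-catenin, read 26.2 and 15.4, and Amer1 read 83.9 and 60.2, each with a probe set on the other side. Apc, a scaffold of the destruction complex, read 193 and 222. Lef1, the TCF/LEF factor of the hair matrix, read 362 and 425, a log2 ratio of 0.23, and 69.1 and 106 at its other probe set. Gsk3b, Apc and Lef1 were thus each above their wild-type signals under the scaling used, by under 1.5-fold at the brightest probe sets. Apc lay within 1 SD of equal signals, at 0.69 SD. Single genes of the wider list were not read under the other settings.

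Of 13 further target genes 6 had a ratio above 1, with a median of -0.02. After Fosl1 the largest differences were in Bmp4 (281 and 362), Nrcam (44.3 and 52.2) and Id2 (501 and 426). Of 6 measured genes of planar polarity, the branch that orients cells within a sheet, 3 had a ratio above 1. Vangl2 read 198 and 348, a log2 ratio of 0.82, but 0.38 and -0.11 at its other probe sets. Vangl1 read 144 and 108, Prickle2 read 244 and 210, and Prickle1 read 410 and 363. The targets of this wider list as a whole lay near equal signals while single genes stood apart.

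**Figure D3:**
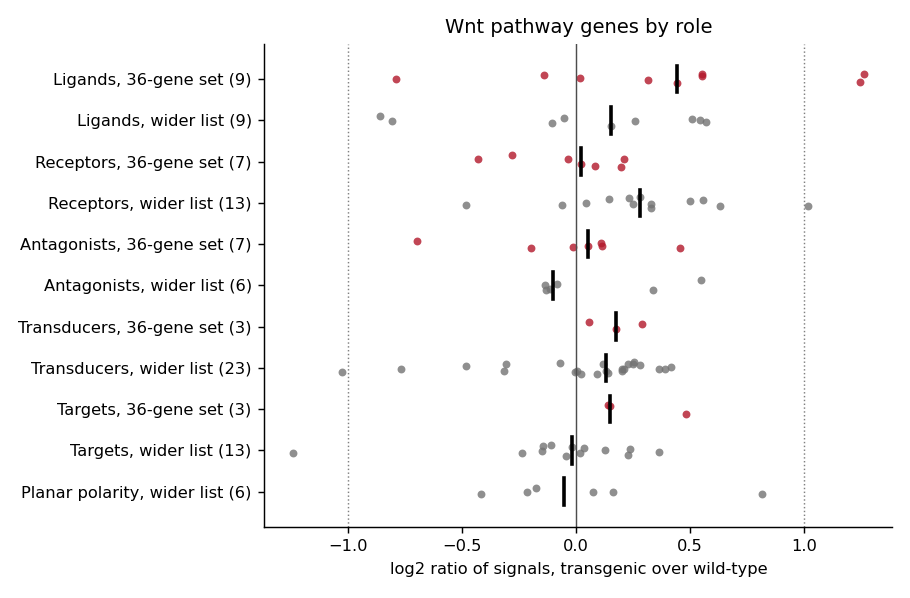
Log2 ratio of transgenic to wild-type signal for each Wnt pathway gene above the floor on both arrays, by role, for the 36-gene set (red) and the wider list (grey); black bars are medians, counts stand in parentheses, vertical jitter has no meaning and dotted lines mark 2-fold. Within the 36-gene set the ligands spread widest, and the medians of both sets lie between -0.10 and 0.44.

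The make-up of the pools bears on ligands and antagonists made by particular cells, and in such bulk RNA fewer cells of a type and less RNA per cell cannot be told apart. The labelled tissue carried its markers, with summed signals of 28170.4 and 30420.3 over the 7 measured genes of matrix and shaft and of 58420 and 57674 over 8 of the inner root sheath. Fibroblast and dermal sheath markers, all 8 above the floor, summed to 3083 in wild type and 3740 in transgenic RNA. They had 5 ratios above 1 and a median log2 ratio of 0.29. The sum leans on Dcn, the brightest of them, at 985 and 1590. Acta2 (933 and 752), Pdgfra and Lum had ratios under 1. Dermal papilla markers summed to 263 and 259.7 over the 6 of 9 above the floor on both arrays, with 4 ratios above 1; Sox2 and Fgf10 were under it on both. Outer root sheath and basal markers summed to 17095 and 14756, with 1 of 10 ratios above 1 and a median of -0.19. The part of these shifts in the ratios of Wnt genes such as Wnt5a and Rspo3 was not tested.

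Other cell types had small summed signals, mixed shifts or mostly lower ratios, with each sum taken over the genes that passed the floor both times. Immune markers summed to 70.8 and 94.3 over 3 of 9 genes, all with ratios above 1 at their brightest probe sets. Of these, H2-Ab1 was close to equal, at 38.0 and 38.6, and only 1 of its 3 probe sets had a ratio above 1. Ptprc, Cd207 and Cd3e were under the floor on both arrays, and H2-Aa, C1qa and C1qb exceeded it in transgenic RNA alone. Endothelial markers summed to 33.3 and 53.2 over 2 of 4 genes, which went opposite ways. Interfollicular epidermis markers went both ways. Ivl read 3109.9 and 683, whereas Krt10, Krt77 and Lor had log2 ratios of 0.59, 1.94 and 0.73, and Krt78 exceeded the floor in transgenic RNA alone. With 3 of 4 ratios above 1 the median of that list was 0.66, and Krt1, Krt2 and Flg were under the floor on both arrays. Markers of melanocytes summed to 13504 and 12243 over 7 genes, with 2 ratios above 1 and a median log2 ratio of -0.28. Those of Schwann cells and nerve summed to 250.03 and 169 over 5, with 1 ratio above 1 and a median of -0.81. Those of sebocytes and adipocytes summed to 8554 and 6469 over 4, with 1 ratio above 1 and a median of -0.39. Most of that last sum was Fabp4, at 7211 and 5108, and the ratio above 1 was that of Scd1. Of 3 skeletal muscle markers only Mylpf was measured on both arrays, at 89.1 and 68.1.

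The values of single members under other settings are bounded. Of the 29 members, 14 kept the sign of their log2 ratio under every alternative that gave them a value, 10 of them above 0 and 4 below. The same share over all genes was not computed, so this count cannot be set against a background. Wnt4 ranged from 0.30 to 0.63, Wnt5a from 0.17 to 0.55, Nkd2 from 0.27 to 0.67 and Wnt3a from 0.41 to 0.74. Fzd7 ranged from -0.57 to -0.21, Wnt10b from -0.93 to -0.55 and Sfrp1 from -0.84 to -0.25. Axin2 ranged from 0.00 to 0.33, and Ctnnb1 from -0.08 to 0.25. Wnt4, Wnt5a, Wnt3a and Nkd2 thus stayed above 0, and Fzd7, Wnt10b and Sfrp1 below it, under every alternative that gave them a value. Another floor leaves the ratio of a brightest probe set above it unchanged, and 1 factor per array shifts all ratios alike. Settings of these kinds could hardly change such signs, so their agreement says little.

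**Figure D4:**
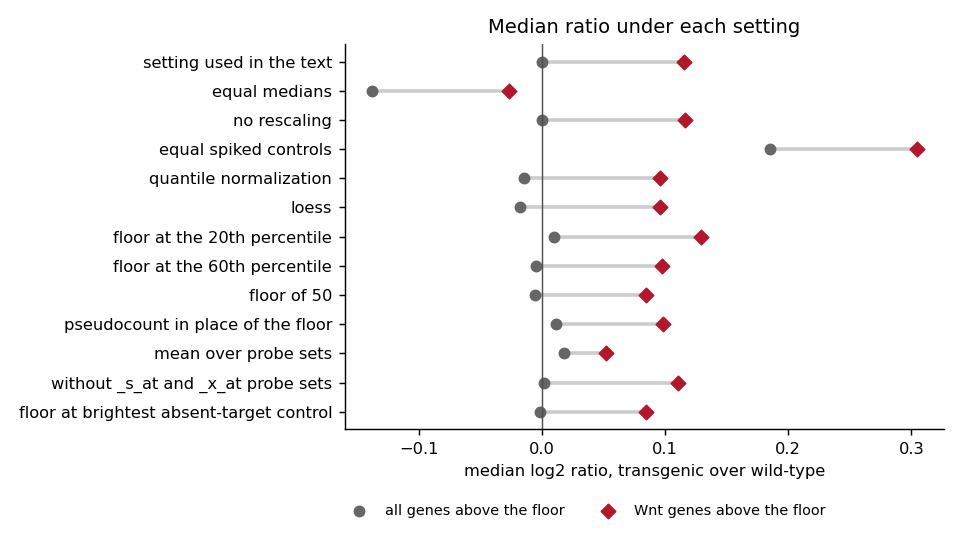
Median log2 ratio of transgenic to wild-type signal over all genes above the floor (grey circles) and over the Wnt genes above the floor (red diamonds) under each scaling, floor and probe set rule; grey lines join the 2 medians of a setting. Both medians move with the scaling, from -0.14 and -0.03 with equal medians to 0.18 and 0.30 with equal spiked controls. These scalings shift all ratios alike.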

How the data were processed

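RNA of pooled hair follicles was hybridised to 2 Mouse430_2 arrays, per the labels' protocols and the file headers. The deposited values are linear intensities, 1 a probe set, scaled by the authors to a 2% trimmed mean of 100 on each array, as the values show; the summary algorithm is not given in the sources used here. Of 45101 probe sets 64 controls were left out, and of the rest 34945 had 1 gene symbol, 932 several and 9160 none in the platform annotation. For all 35 measured members the platform's gene identifier carried the same symbol in RefSeq. Both columns were set to an equal 2% trimmed mean over non-control probe sets, and each gene was read from its brightest probe set. Both arrays were needed above the floor for a ratio, on the log2 scale, and a call needed 2-fold. The number of arrays limits the precision, and no depth applies. The members, lists and rules were chosen with earlier results of these data known, lists were taken as a description with no test, and wider genes were named by a rule (up to 4 of a role by size of log2 ratio, with Lef1, Lgr5, Apc and Gsk3b). Alternatives covered scaling, floor, pseudocount, probe set and fold. The script was tested on simulated data. Python 3.11.15, numpy 2.4.6, pandas 2.3.3, scipy 1.17.1 and statsmodels 0.14.6 were used.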

Additional observations from a re-analysis of the deposited data

How the results depend on the processing

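The counts of 2-fold Wnt genes rest on dim signals. The count of higher members was 2 under equal medians, no rescaling, equal spiked controls, quantile normalization, loess and a floor at the 20th percentile. It was 0 with a floor at the 60th percentile, a floor of 50, a pseudocount in place of the floor, a 3-fold threshold, or a floor at the brightest control without a target (added after seeing the data). It was 1 with the mean over probe sets (Wnt3) and 1 without probe sets that can match several transcripts (Rspo3). The count of lower members was 0 except at 1.5-fold, where it was 2. The member median of 0.12 moved to -0.027 with equal medians and to 0.30 with equal spiked controls, and lay between 0.05 and 0.13 under the other settings.

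Over all genes the counts of 185 higher and 183 lower became 115 and 296 with equal medians, 316 and 103 with equal spiked controls, 845 and 685 with the 20th percentile floor, 50 and 61 with the 60th, 22 and 37 with a floor of 50, 98 and 118 with the control floor, 478 and 377 with the pseudocount, 735 and 784 at 1.5-fold, and 27 and 40 at 3-fold. The mean over probe sets gave 103 and 128, quantile normalization 140 and 230, and loess 131 and 240. By construction, a lower or higher floor tests more or fewer dim genes, and a lower or higher threshold calls more or fewer of the same genes. For the other settings the cause was not tested. No paired analysis was possible because each group is 1 array and the labels number no replicates. The arrays' small number limits every value, and signals close to the floor are the least certain.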
